A study of Mus musculus with 4 samples.

Results

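Chromatin accessibility was examined around 49 Wnt pathway genes in WT and CTCF-K20R embryoid bodies (EBs). The genes were chosen by name and comprise 19 Wnt ligands, 10 receptors (8 Frizzled genes, Lrp5 and Lrp6), 8 secreted antagonists (Dkk1, Dkk2, Dkk3, Sfrp1, Sfrp2, Sfrp4, Sfrp5 and Frzb), 8 genes of the R-spondin axis (Rspo1 to Rspo4, Lgr4, Lgr5, Znrf3 and Rnf43) and 4 intracellular genes (Axin1, Axin2, Ctnnb1 and Sp5). They are 49 of the 21840 protein-coding genes of the annotation. Accessibility was measured by ATAC-seq, in which a transposase inserts adapters into open chromatin, and each of the 4 libraries is represented by its list of called peaks. Merging the peaks of the 4 lists gave 80380 regions, of which 373 lay within 50 kb of a transcription start site (TSS) of at least 1 of these genes. Of these regions 46 lay near more than 1 of the genes, such as those between Wnt3a and Wnt9a, and were counted once.

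Both genotypes were derived from E14Tg2A mouse embryonic stem cells (mESCs). The CTCF-K20R cells carried CTCF, the DNA-binding factor that marks the borders of chromatin loops, with a lysine replaced by arginine by CRISPR/Cas9, and the WT cells did not. Before differentiation all cells had grown on mitomycin C-inactivated mouse embryo fibroblasts with 15% serum, 1000 U/mL LIF, and the inhibitors CHIR99021 (3 µM) and PD0325901 (1 µM). CHIR99021 inhibits GSK3, so that all cells had been exposed to an activator of this pathway. EBs then formed in hanging drops of 1000 cells in medium with serum and without LIF, and were taken on day 4. There were 2 WT and 2 K20R libraries. Per the methods of the study, the replicates of a genotype are biological and come from independent experiments. How many edited clones they represent is not given in the sources used here, so clone and genotype cannot be told apart.

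Wnt proteins are secreted lipid-modified ligands that bind Frizzled receptors. In the canonical branch the co-receptors Lrp5 and Lrp6 join the complex, the destruction complex built on Axin is inactivated, and β-catenin (Ctnnb1) accumulates and activates targets together with TCF and LEF factors on DNA. In the early mouse embryo this pathway is required for the primitive streak and the mesoderm that arises from it, and its timing is known to affect cardiac differentiation. Secreted Dkk and Sfrp proteins block the ligands or co-receptors, whereas R-spondins acting with Lgr receptors protect Frizzled proteins from removal by the ubiquitin ligases Znrf3 and Rnf43.

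The sequences of 8 regions are given as a description. They are those with the largest differences (near Fzd7 and Wnt9a), and regions near the Wnt genes chosen because an exact TCF-LEF or CTCF match lay beside the summit. Each is the forward strand of mm10 (GRCm38), 201 bases centred on the strongest summit, and a match is in capitals. TCF-LEF was searched as CTTTGAT or CTTTGAA and CTCF by its core consensus, both on either strand. A match lies on the forward strand unless stated. That near Fzd10 and that near Wnt5b are on the reverse strand, and no 2 matches overlap in these windows.
Fzd7 lower in K20R, chr1:59470965-59471165: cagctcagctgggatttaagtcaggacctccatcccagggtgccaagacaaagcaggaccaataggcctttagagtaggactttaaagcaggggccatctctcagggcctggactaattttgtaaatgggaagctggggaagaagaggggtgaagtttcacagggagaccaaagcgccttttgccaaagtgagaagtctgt
Wnt9a lower in K20R, chr11:59336420-59336620: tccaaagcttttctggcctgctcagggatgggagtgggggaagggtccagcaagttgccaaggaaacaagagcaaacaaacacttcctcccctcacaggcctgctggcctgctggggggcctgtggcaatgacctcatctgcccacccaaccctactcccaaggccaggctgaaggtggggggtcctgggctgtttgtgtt
Fzd10 lower in K20R, chr5:128552542-128552742: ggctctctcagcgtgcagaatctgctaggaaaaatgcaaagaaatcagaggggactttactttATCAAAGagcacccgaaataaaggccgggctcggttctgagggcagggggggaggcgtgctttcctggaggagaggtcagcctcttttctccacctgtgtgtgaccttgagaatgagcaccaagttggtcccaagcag
Fzd4 lower in K20R, chr7:89367716-89367916: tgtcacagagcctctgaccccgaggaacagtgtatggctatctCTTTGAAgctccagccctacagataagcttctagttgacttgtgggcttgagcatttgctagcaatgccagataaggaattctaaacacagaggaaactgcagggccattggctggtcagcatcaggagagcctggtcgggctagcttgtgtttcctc
Znrf3 WT-restricted, chr11:5411712-5411912: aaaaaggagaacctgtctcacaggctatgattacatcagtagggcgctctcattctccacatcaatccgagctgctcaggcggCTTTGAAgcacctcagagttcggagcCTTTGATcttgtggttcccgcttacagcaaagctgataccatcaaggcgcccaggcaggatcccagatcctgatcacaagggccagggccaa
Wnt5b WT-restricted promoter, chr6:119467723-119467923: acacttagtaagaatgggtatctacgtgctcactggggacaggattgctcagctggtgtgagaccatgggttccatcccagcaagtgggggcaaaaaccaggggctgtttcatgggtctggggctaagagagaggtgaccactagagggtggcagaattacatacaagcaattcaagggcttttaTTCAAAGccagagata
Wnt10a WT-restricted, chr1:74787967-74788167: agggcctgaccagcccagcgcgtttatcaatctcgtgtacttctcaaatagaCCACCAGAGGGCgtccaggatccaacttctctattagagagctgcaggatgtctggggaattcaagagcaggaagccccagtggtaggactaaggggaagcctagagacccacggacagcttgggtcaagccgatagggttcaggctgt
Znrf3 higher in K20R, chr11:5485373-5485573: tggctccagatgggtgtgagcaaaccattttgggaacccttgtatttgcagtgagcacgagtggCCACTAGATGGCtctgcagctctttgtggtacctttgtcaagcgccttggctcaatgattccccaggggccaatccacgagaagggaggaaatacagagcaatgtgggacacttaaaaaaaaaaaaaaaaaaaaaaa

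The Fzd7 and Wnt9a sequences held no match to either motif. The Znrf3 WT-restricted sequence held 2 TCF-LEF matches, starting at bases 84 and 110. The Wnt10a sequence and the Znrf3 region that was higher in K20R each held 1 CTCF match. A match is a description of the letters and not of a bound factor.

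The lists held 59783 and 66703 peaks in WT against 51823 and 55832 in K20R. Reads were not used here, so depth is unknown. The median fold of a summit over its local background was higher in the second library of each genotype (4.68 and 5.85 in WT, 4.73 and 6.04 in K20R). Peak numbers within each list have gaps, and 50.5% to 60.8% of the numbers remain, so that a region without a peak can have had one that was taken out. As a check of the labelled cell type, promoters of all 6 primitive streak and mesoderm markers, all 4 pluripotency markers and all 4 endoderm markers had a peak in every library. Promoters of all 5 fibroblast markers had one too, whereas Ptprc and Alb, markers of blood and hepatocytes, had none. Hbb-b1, also chosen as a blood marker, did not match the annotation, so blood was checked by Ptprc alone. Of these markers, the promoter percentiles (defined below) of both K20R libraries lay below both WT libraries for 4 of 4 endoderm and 3 of 6 mesoderm markers, and above them for 3 of 4 pluripotency and 2 of 6 mesoderm markers, where 23.0% of all ranked promoters lay below and 23.8% above. Among the 5 fibroblast markers 2 lay below and 1 above. The range was 1.39 to 86.5 in WT and 0.0414 to 40.1 in K20R for endoderm markers. For fibroblast markers it was 0.711 to 74.1 in WT and 0.677 to 47.7 in K20R. The part of these differences in the results for the Wnt genes was not tested, and in bulk EBs a smaller share of cells with an open region cannot be told apart from less opening per cell.

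Most Wnt genes had an open promoter in both genotypes. A peak lay within 1 kb of a TSS in all 4 libraries for 46 of the 49 genes, or for all but 3 ligands, beside 66.3% of all protein-coding genes. By library, 46 and 46 genes had a promoter peak in WT, and 47 and 48 in K20R. Wnt8a, a ligand of the primitive streak, had none in any library, although 9 regions lay within 50 kb, the nearest common ones 3.94 kb before and 5.14 kb after its start. Wnt8b had a promoter peak in 1 K20R library alone, at percentile 3.93 of that list by −log10 p. Wnt10a had one in both K20R libraries (percentiles 5.35 and 20.8 of their lists) and in neither WT library, and no peak number is missing at this place in the WT lists.

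The strength of promoters was compared by a percentile that is unaffected by list length. For each gene the strongest promoter peak by −log10 p was ranked among the 14478 genes whose promoter carried a peak in every library, where 100 is the strongest. Ligand promoters ranked low, with a median over 16 genes of 17.2 and 15.8 in the WT libraries and 11.6 and 15.1 in K20R. Receptors had medians over 10 genes of 50.3 and 46.2 in WT against 39.6 and 33.4 in K20R. Wnt3a, Wnt10b, Wnt1 and Wnt5a stood at or below 7.14 in every library, and no other Wnt gene did. At the other end were Lgr4, an R-spondin receptor (87.6 and 95.8 in WT, 96.7 and 94.6 in K20R), and Axin1, a scaffold of the destruction complex (94.7 and 91.2, 92.6 and 92.1).

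For 12 of the 46 genes the promoter percentiles of both K20R libraries lay below both WT libraries, where 23.0% of all ranked promoters did so, and for 8 they lay above, where 23.8% did. These counts are near the background in both directions. Ranked within the whole list instead, 16 lay below and 5 above, beside 32.2% and 15.7% of all promoters. Among the ligands 5 lay below and 1 above, among the antagonists 3 and 2, among the receptors 2 and 3, among the R-spondin axis 0 and 1, and among the intracellular genes 2 and 1. Summit folds were tested by limma below. That threshold is a criterion unlike non-overlap, so its counts cannot be set against those above. Of the 55 regions within 1 kb of a TSS of these genes with a peak in every library, 1 was lower, at Lrp5, and 0 were higher. Their median log2 difference was 0.068.

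**Figure D1:**
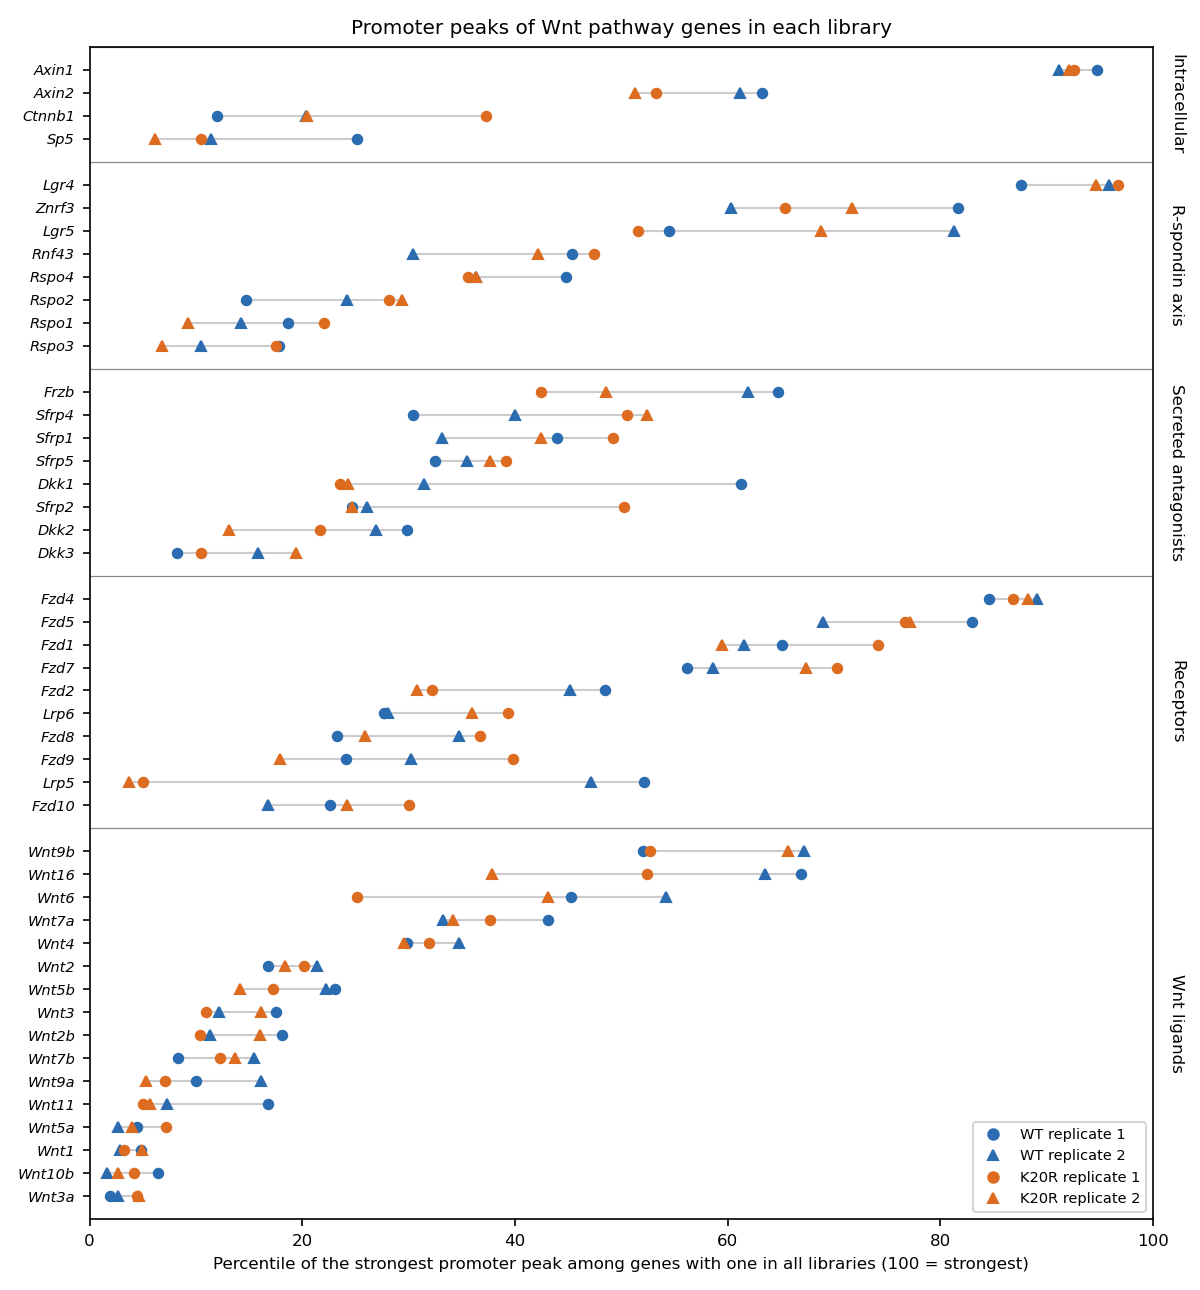
Percentile of the strongest promoter peak (horizontal axis, 0 to 100, among genes with one in all libraries) for the 46 Wnt genes whose promoter carried a peak in every library. Circles and triangles are the first and second replicate, WT in blue and K20R in orange. Lrp5 shows the widest gap between the genotypes, at 52.2 and 47.2 in WT against 5.04 and 3.74 in K20R, and ligands lie mostly at the left.

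The widest gap was at Lrp5, which encodes a co-receptor of canonical signalling. Its promoter stood at 52.2 and 47.2 in WT against at 5.04 and 3.74 in K20R. Lrp6, the paralogous co-receptor, went the other way, at 27.7 and 28.0 in WT against 39.4 and 36.0 in K20R. Dkk1, an antagonist that binds these co-receptors, had 61.3 and 31.5 in WT against 23.5 and 24.3 in K20R, with the WT libraries far apart from each other.

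Several ligands lay lower in K20R. Wnt16 had 66.9 and 63.5 in WT against 52.4 and 37.9 in K20R, and Wnt6 had 45.3 and 54.2 against 25.2 and 43.1. Wnt5b, a ligand of the non-canonical branch, had 23.1 and 22.2 against 17.2 and 14.1. The summit folds of the same Wnt5b peaks went the other way, at 4.23 and 4.51 in WT against 6.61 and 5.68 in K20R. The gaps were narrower for Wnt9a (10.0 and 16.1 against 7.11 and 5.34) and for Wnt11, which acts in cardiac specification (16.8 and 7.29 against 5.04 and 5.73). Wnt3, a ligand needed for the primitive streak, had 17.5 and 12.1 in WT against 11.0 and 16.2 in K20R, which overlap, and so did Wnt5a with 4.46 and 2.67 against 7.14 and 3.99. Wnt3a was the only ligand above, at 1.95 and 2.69 in WT against 4.46 and 4.68 in K20R, all among the weakest promoters ranked.

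Outside the ligands, Frzb, an sFRP family antagonist, had 64.7 and 61.9 in WT against 42.4 and 48.6 in K20R. Fzd2 had 48.5 and 45.2 against 32.2 and 30.8, and Dkk2 had 29.8 and 26.9 against 21.7 and 13.1. Axin2 and Sp5, both direct targets that feed back on the pathway, were lower in percentile as well. Axin2 stood at 63.3 and 61.1 in WT against 53.2 and 51.3 in K20R. Sp5 stood at 25.1 and 11.4 against 10.5 and 6.16, with hardly any gap between the genotypes. The summit folds of the Sp5 promoter overlapped, at 3.61 and 3.18 in WT against 3.51 and 3.38 in K20R. Their normalised log2 difference was 0.079 ± 0.24 (SE, limma adjusted p = 0.922). The promoters above were those of Sfrp4 (30.4 and 40.1 in WT, 50.5 and 52.5 in K20R), Ctnnb1 (12 and 20.3, 37.2 and 20.4), Fzd7 (56.1 and 58.6, 70.3 and 67.3), Rspo2 (14.7 and 24.2, 28.2 and 29.4), Fzd10 (22.6 and 16.7, 30.1 and 24.2) and Sfrp5 (32.5 and 35.5, 39.2 and 37.6). At Ctnnb1 the gap between WT replicate 2 and K20R replicate 2 was far smaller than that between replicates. Rspo3, Lgr5 and Sfrp1 overlapped between genotypes, with Lgr5, a stem cell receptor for R-spondins, at 54.5 and 81.3 in WT against 51.6 and 68.8 in K20R. Among promoters lower in percentile, summit folds overlapped at Frzb, Dkk1, Wnt6, Wnt9a, Wnt11 and Axin2, as at Sp5. Both K20R folds lay below both WT folds at Lrp5, Fzd2, Wnt16 and Dkk2. The Frzb folds were 6.64 and 6.59 in WT against 6.23 and 7.27 in K20R (log2 difference 0.064 ± 0.21, limma adjusted p = 0.932).

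Fewer peaks were listed near the Wnt genes in both K20R libraries, in proportion to their shorter lists. Within 50 kb lay 306 and 326 peaks in WT against 262 and 278 in K20R, or 316 ± 14.1 and 270 ± 11.3 (mean ± SD, n = 2), a difference of −46 or −14.6%. The exact two-sided permutation p was 0.33, the smallest that 2 against 2 libraries allow. As a share of their lists these peaks made up 0.512% and 0.489% in WT against 0.506% and 0.498% in K20R, which overlap.

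Of the 373 regions, 198 had a peak in all 4 libraries (common regions), 43 in both WT libraries alone (WT-restricted), 12 in both K20R libraries alone (K20R-restricted) and 120 in some other combination. WT-restricted regions made up 11.5%, beside 10.4% of all regions of the genome and 8.75% of those within 50 kb of any protein-coding TSS. K20R-restricted regions made up 3.22%, beside 3.10% and 2.97%. Both shares are near the background. With an equal number of peaks from every list, 31 regions were WT-restricted and 16 K20R-restricted. Restricted regions were weaker than common regions, with median list percentiles of 28.5 (WT-restricted), 22.5 (K20R-restricted) and 63.4 (common). All but 2 of the WT-restricted and all but 1 of the K20R-restricted regions lay more than 1 kb from a TSS of these genes, as did 143 of the 198 common ones. At least 1 WT-restricted region lay near 26 genes and at least 1 K20R-restricted region near 13. The share that was WT-restricted was 22.4% for the antagonists (11 of 49 regions), 12.9% for the ligands (18 of 139), 10.2% for the R-spondin axis (6 of 59), 9.09% for the intracellular genes (3 of 33) and 5.38% for the receptors (5 of 93). With 1 library left out fewer lists must hold or lack a peak, so that a region counts as restricted more easily. Leaving out WT replicate 1 in this way gave 68 WT-restricted regions. Leaving out WT replicate 2, K20R replicate 1 or K20R replicate 2 gave 20, 28 and 27 K20R-restricted regions.

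**Figure D2:**
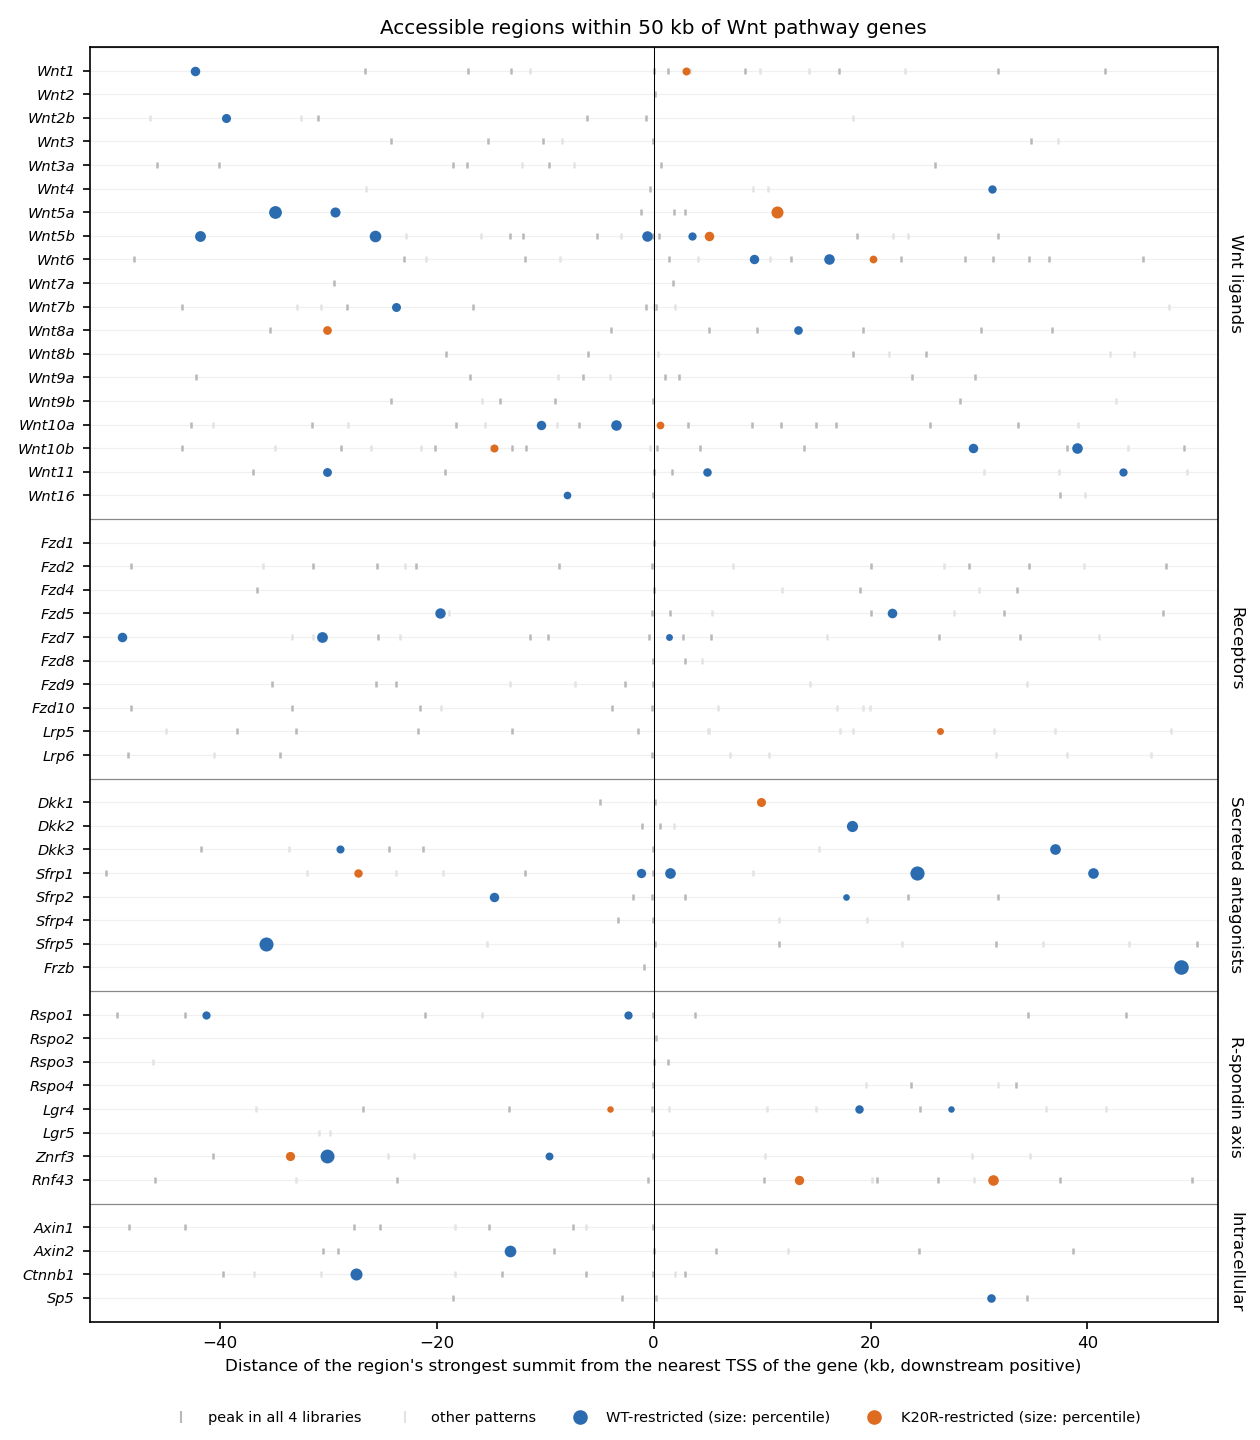
Regions within 50 kb of each gene, placed by the distance of the strongest summit from the nearest TSS of that gene (kb, downstream positive). A region near several of the genes is drawn at each of them. Grey ticks are common regions and pale ticks other combinations, and blue and orange circles are WT-restricted and K20R-restricted regions, larger for a higher percentile. WT-restricted regions (43 in all) outnumber K20R-restricted ones (12), and the largest circles lie away from promoters at Frzb, Sfrp1, Sfrp5, Znrf3 and Wnt5a. The WT lists are longer, and with an equal number of peaks from every list the counts were 31 and 16.

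The strongest WT-restricted regions lay near secreted antagonists. One 48.6 kb downstream of the Frzb start (chr2:80398568-80399499, intergenic) stood at percentiles 90.3 and 92.0 of the WT lists, with summit folds of 9.12 and 10.4. Another in an intron of Sfrp1 (chr8:23435068-23436158, 24.3 kb downstream of its start) stood at 82.8 and 87.2. One 35.7 kb upstream of Sfrp5 (chr19:42237711-42238735) stood at 82.6 and 84.0, but the TSS nearest to it was that of Golga7b. Sfrp1 had 4 WT-restricted regions, as did Wnt5b, while Fzd7 and Wnt11 had 3 each. The K20R lists have 2 and 1 missing peak numbers around the Frzb region and 1 and 0 around each of those at Sfrp1 and Sfrp5, so that a weaker peak could have been taken out of 1 or both lists there.

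Next in strength was a region in an intron of Znrf3 (chr11:5411320-5412949, shown above with its TCF-LEF matches), at 78.1 and 84.3. Znrf3 encodes a ligase that removes Frizzled receptors and is itself a target of the pathway. One region near Wnt5a (chr14:28469576-28469956), in an intron of Erc2 34.9 kb upstream, stood at 71.0 and 60.9. Another lay 27.5 kb upstream of Ctnnb1 (chr9:120905327-120906316), at 46.9 and 66.6. Around Axin2 a WT-restricted region 13.3 kb upstream (chr11:108906768-108907248) stood at 54.8 and 49.4. Weaker ones stood in a Dkk2 intron (chr3:132102931-132104211, 38.4 and 54.3) and at 2 places near Wnt5b (chr6:119491950-119493164, 45.7 and 57, and chr6:119585524-119586441 in an Erc1 intron, 42.9 and 42.5). At an alternative promoter of Wnt5b (chr6:119466948-119467931, shown above), both WT libraries had a peak at 28.6 and 49.6, and no number was missing in either K20R list. Over all WT-restricted regions near the Wnt genes, 15 of 43 had no missing number in either K20R list.

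K20R-restricted regions were weaker. The strongest overlapped a coding exon of Wnt5a (chr14:28522422-28522869, 11.4 kb downstream of a start), at 61.1 and 51.4 of the K20R lists, and 5 and 8 numbers are missing around it in the WT lists. Near Rnf43, the paralogue of Znrf3, a coding-exon region (chr11:87730853-87731876) stood at 40.1 and 39.3 with no missing number in WT. The other Rnf43 region (chr11:87677626-87678442) stood at 24.7 and 29.7. One in a Wnt5b intron (chr6:119443904-119444571, 26.7 and 30.2) held a CTCF match. Those of Znrf3 (32.9 and 18.1), Wnt8a (14.2 and 28.0), Sfrp1 (22.2 and 15.1) and Wnt1 (25.4 and 4.80, coding exon) followed. Dkk1 had one 9.93 kb downstream of its start (15.8 and 32.0), where 12 and 22 numbers are missing in the WT lists. The weakest were at the Wnt10a promoter, in Lrp5 (8.91 and 4.76) and near Lgr4 (1.62 and 6.02).

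A few common regions near Wnt genes, most of them distal, differed in summit fold between the genotypes at the threshold used. The log2 summit fold was quantile normalised and compared by limma over all 38527 common regions, with Benjamini-Hochberg adjustment and a threshold of 0.05. Of the 198 common regions near Wnt genes 10 were lower in K20R (5.05%, where 3.64% of all common regions and 2.87% of those within 50 kb of a protein-coding TSS were lower) and 4 were higher (2.02%, where 2.48% and 1.95% were). With recovered summit pileups in place of folds 28 were lower and 10 higher, where 10.7% and 9.73% of all common regions were. With peaks of −log10 q of at least 5 alone, 3 were lower and 2 higher, where 1.88% and 1.37% were. The median log2 difference was 0.0464, beside 0.0141 over all common regions, with a median standard error of 0.219. Receptor genes had 5 of the 10 lower regions among 48 common ones, ligands 2 of 76, intracellular genes 2 of 23, antagonists 1 of 23 and the R-spondin axis 0 of 28. In 9 of the 10 the region lay more than 1 kb from a TSS of these genes. The exception was that of Lrp5.

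**Figure D3:**
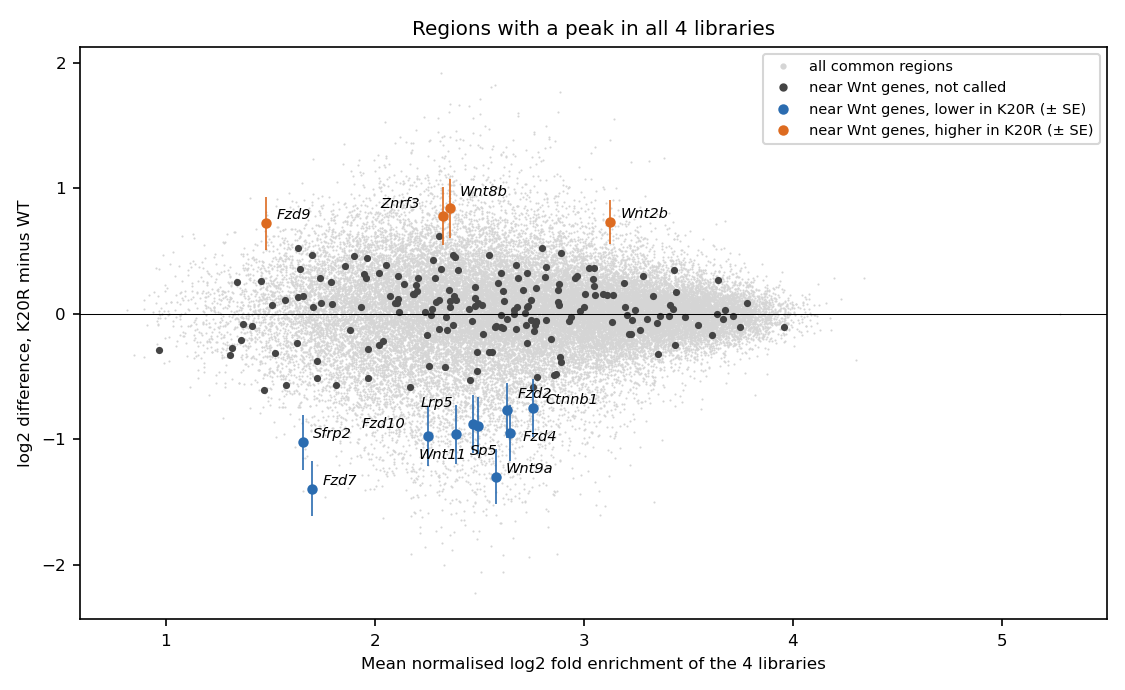
Difference in log2 fold enrichment (K20R minus WT, vertical axis) against the mean normalised log2 fold enrichment of the 4 libraries for all 38527 common regions (pale), with the 198 near Wnt genes in dark grey. The 10 that were lower (blue) and the 4 that were higher (orange) carry the gene name and a bar of ± 1 SE, and run from −1.39 at Fzd7 to 0.84 at Wnt8b.

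The largest decrease was 11.4 kb upstream of Fzd7 (chr1:59470460-59471424, first of the sequences above), the gene of a Frizzled receptor prominent in mESCs and gastrulation. Its summit folds were 4.99 and 5.71 in WT against 1.97 and 2.04 in K20R, and its list percentiles dropped from 73.4 and 76.0 to 1.43 and 2.63. The normalised log2 difference was −1.39 ± 0.22 (SE, limma adjusted p = 1.16e-04). The neighbouring region 9.72 kb upstream had −0.30 ± 0.23 (limma adjusted p = 0.551), and the Fzd7 promoter region 0.11 ± 0.21 (limma adjusted p = 0.871).

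Next was a region 29.6 kb downstream of the Wnt9a start (chr11:59336050-59336901), also within 50 kb of Wnt3a. Its folds were 8.26 and 10.9 in WT against 3.34 and 4.24 in K20R, which do not overlap, with a log2 difference of −1.30 ± 0.22 (limma adjusted p = 2.86e-04). In an intron of Sfrp2, 2.90 kb downstream of the start of this antagonist gene (chr3:83768716-83769493), folds were 4.54 and 4.5 in WT against 2.13 and 2.27 in K20R. That difference was −1.02 ± 0.22 (limma adjusted p = 0.00308). These 3 decreases kept an adjusted p under 0.05 whichever library was left out, and none of the other 11 calls did.

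Frizzled genes held 3 more decreases. A region 48.2 kb upstream of Fzd10 (chr5:128552148-128553179) had folds of 6.19 and 7.45 in WT against 3.34 and 3.24 in K20R (−0.98 ± 0.24, limma adjusted p = 0.00936). The 3 other common regions upstream of Fzd10 had −0.51, −0.45 and −0.21 and did not pass the threshold, and its promoter had 0.28. In an intron of Tmem135, 36.5 kb upstream of Fzd4 (chr7:89367685-89368652), folds were 8.66 and 9.12 in WT against 4.54 and 4.24 in K20R (−0.95 ± 0.23, limma adjusted p = 0.00751). The common regions from 50 kb to 1 Mb around Fzd4 had a median of 0.13. The third, 34.6 kb downstream of Fzd2 (chr11:102638570-102639729) and nearer to Meioc, had 6.66 and 10.0 against 4.09 and 5.28 (−0.77 ± 0.22, limma adjusted p = 0.0275). Without WT replicate 1 the adjusted p was 0.0555 for Fzd10 and 0.0887 for Fzd4, and without K20R replicate 2 it was 0.149 and 0.121. That of Fzd2 was 0.187 without WT replicate 2, 0.104 without K20R replicate 1 and 0.12 without K20R replicate 2.

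The Lrp5 region spans the promoter (chr19:3685131-3688407), with the summit 1.47 kb upstream of the start. Its folds were 7.23 and 8.02 in WT against 3.80 and 4.13 in K20R (−0.88 ± 0.23, limma adjusted p = 0.0165), from the same peaks as the promoter percentile above. Without WT replicate 1 the adjusted p was 0.106, and without K20R replicate 2 it was 0.138. The Lrp6 promoter had 0.15 ± 0.18 (limma adjusted p = 0.751).

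Of the ligands, Wnt11 had a decrease 37.0 kb upstream (chr7:98797564-98798741), with folds of 6.49 and 8.42 in WT against 3.10 and 4.47 in K20R (−0.96 ± 0.23, limma adjusted p = 0.00854). Without K20R replicate 1 the adjusted p was 0.0957. Regions near the intracellular genes were lower 18.5 kb upstream of Sp5 (chr2:70456062-70456629) and 6.22 kb upstream of Ctnnb1 (chr9:120926719-120927472). The Sp5 region had 6.48 and 9.27 in WT against 3.44 and 4.80 in K20R (−0.89 ± 0.23, limma adjusted p = 0.0128). Without WT replicate 2 its adjusted p was 0.0753, and without K20R replicate 1 it was 0.0943. The Ctnnb1 region overlapped between genotypes in raw fold, with 6.31 and 12.2 against 3.58 and 7.48 (−0.75 ± 0.23, limma adjusted p = 0.0490), and had 0.469 and 0.495 without the same libraries. The Axin2 promoter region had −0.0020 ± 0.22 (limma adjusted p = 0.998), and 2 regions 24.4 kb and 38.7 kb downstream of a start had −0.61 and −0.59 without passing the threshold (limma adjusted p = 0.0771 and 0.189).

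**Figure D4:**
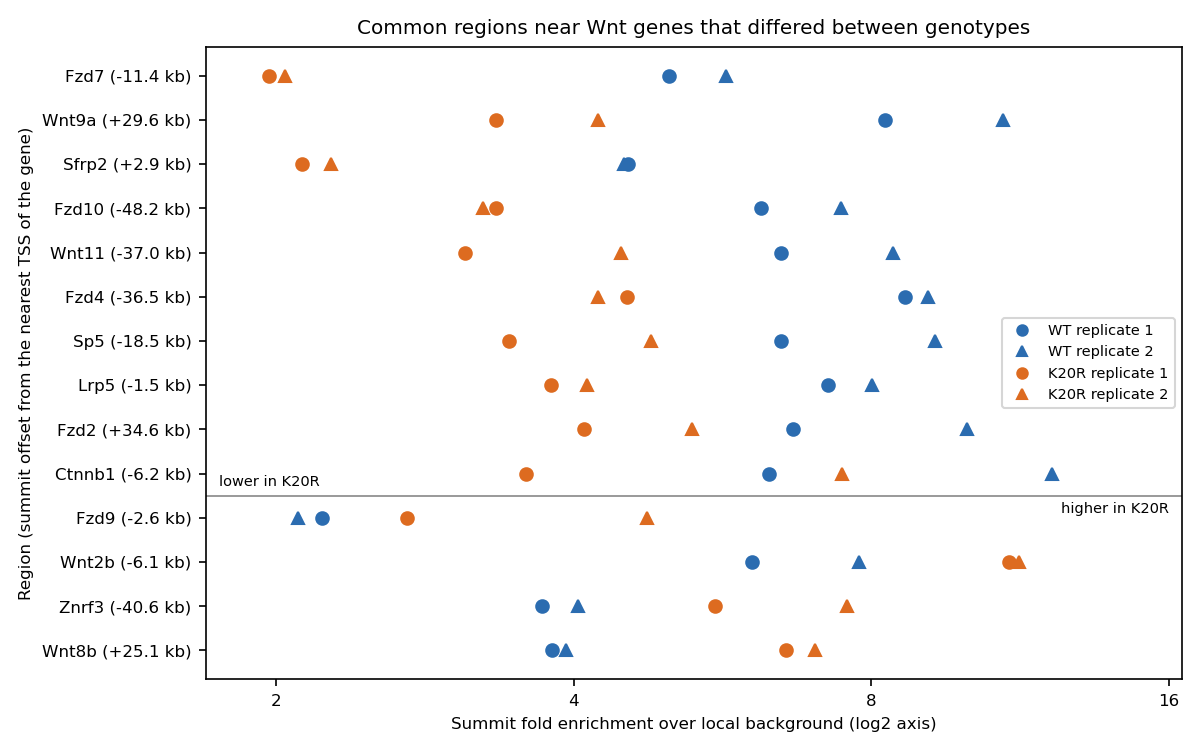
Summit fold enrichment over local background (horizontal log2 axis) in each library for the 14 common regions near Wnt genes that passed the threshold. Circles and triangles are the first and second replicate, WT in blue and K20R in orange. At Fzd7 the WT libraries stand at 4.99 and 5.71 and the K20R libraries at 1.97 and 2.04, whereas at Ctnnb1 the genotypes overlap.

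Regions near Wnt8b, Znrf3, Wnt2b and Fzd9 were higher in K20R. Of these the region 25.1 kb downstream of the Wnt8b start (chr19:44518135-44519409), in a coding exon of Sec31b, had folds of 3.80 and 3.93 in WT against 6.56 and 7.02 in K20R (0.84 ± 0.24, limma adjusted p = 0.0271). That 40.6 kb upstream of Znrf3 (chr11:5485178-5486282, nearest to Xbp1, shown above with its CTCF match) had 3.72 and 4.04 against 5.56 and 7.56 (0.78 ± 0.23, limma adjusted p = 0.0397). One 6.13 kb upstream of Wnt2b (chr3:104967421-104968456) had 6.06 and 7.77 against 11.0 and 11.3 (0.73 ± 0.17, limma adjusted p = 0.00735), although its list percentiles of 73.6 and 81.3 in WT against 88.2 and 79.9 in K20R overlap. The last, 2.65 kb upstream of Fzd9 (chr5:135253675-135254256), had 2.23 and 2.1 against 2.72 and 4.75 (0.72 ± 0.21, limma adjusted p = 0.0352).

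Each of these calls was lost when 1 or another library was left out, although the log2 differences stayed positive, between 0.48 and 1.08. Without K20R replicate 1 the adjusted p was 0.241 for Wnt8b, 0.152 for Znrf3 and 0.19 for Wnt2b. Without WT replicate 2 it was 0.151 for Wnt8b, 0.187 for Znrf3 and 0.198 for Fzd9, and without WT replicate 1 it was 0.0675 for Znrf3 and 0.0932 for Fzd9. Without K20R replicate 2 it was 0.157 for Znrf3 and 0.31 for Fzd9. When summit pileups were used in place of folds, the log2 difference was 0.11 for Wnt2b and 0.23 for Wnt8b, neither past the threshold (limma adjusted p = 0.72 and 0.41).

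An exact TCF-LEF match stood within 100 bp of the summit in 35 of the 373 regions near Wnt genes (9.38%), beside 6.46% of all regions. It was present in 19 of the 198 common regions (9.6%, genome 5.37%), in 5 of the 43 WT-restricted (11.6%, genome 8.75%), in 0 of the 12 K20R-restricted (genome 6.66%), in 2 of the 10 lower regions (Fzd10 and Fzd4, above; genome 9.49%) and in 0 of the 4 higher ones (genome 4.5%). With so few regions in the last 3 classes, a count of 0 or 2 cannot be set apart from these shares. The Axin2 region 38.7 kb downstream held 3 matches, and the Sp5 promoter region held 2. CTCF matches stood in 28 regions near Wnt genes (7.51%, genome 5.97%) and in 18 of the 198 common ones (9.09%, genome 7.01%). They stood in 4 of the 43 WT-restricted regions (9.30%, genome 2.58%), a share near that of the common regions. Of the 12 K20R-restricted regions 1 held a match (8.33%, genome 4.01%), as did none of the 10 lower ones (genome 2.57%) and 1 of the 4 higher ones (genome 5.23%). Whether these small counts differ from the genome shares was not tested.

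Another 48 genes of the pathway gave similar counts. They comprise 15 transduction components, 18 genes of ligand processing and other receptors, 4 nuclear factors and 11 targets in early mesoderm. Of their 435 regions 41 were WT-restricted (9.43%, near any gene 8.75%) and 10 K20R-restricted (2.30%, near any gene 2.97%), and of their 245 common regions 7 were lower (2.86%, near any gene 2.87%) and 5 higher (2.04%, near any gene 1.95%). The promoter percentiles of both K20R libraries lay below both WT libraries for 12 of 42 genes and above them for 7, where 23.0% and 23.8% of all ranked promoters did so. Among the 4 nuclear factors that recruit β-catenin, Tcf7 and Tcf7l2 each had 1 lower region (−1.44 ± 0.26, limma adjusted p = 4.54e-04, and −0.96 ± 0.23, limma adjusted p = 0.00736), and Lef1 and Tcf7l1 had none past the threshold. Fzd3 had 2 lower regions, the stronger at −1.43 ± 0.21 (limma adjusted p = 4.10e-05). In contrast a region near Fzd6 was higher (1.25 ± 0.22, limma adjusted p = 4.53e-04), as was one near Apc, a part of the destruction complex (1.15 ± 0.24, limma adjusted p = 0.00205). The remaining calls were lower near Cer1, Sost and Cdx1, and higher near Cer1, Kremen2 and Cdx2. How the calls of these other genes fare with a library left out was not examined.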

How the data were processed

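ATAC-seq peak lists of 2 WT and 2 CTCF-K20R libraries of day 4 EBs were analysed, grouped by the sample labels. Per the labels and the methods of the study, the authors trimmed reads with Trim Galore, aligned them to mm10 with Bowtie2 and called peaks with MACS2, which gave 1 list per library. In the deposited lists the score is 10 times the −log10 p of the summit as a whole number, and the ratio is the fold by which the summit exceeds the local background of its library. The −log10 p and the −log10 q in the deposited lists refer to the summit, as the authors' caller gave them.

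Peaks sharing 1 bp or more were merged into a region. TSSs were those of protein-coding transcripts in the GENCODE basic annotation of the same build, and distances ran from the TSS to the nearest base of the region (1 kb for promoters, 50 kb for regions). Common regions were tested with limma 3.58.1 (R 4.3.3, eBayes with a trend) on quantile-normalised log2 folds, over all 38527 regions, in place of the read-based test of the study, which needs reads. Summit pileups were recovered from fold and p, and nearly all came out whole within 0.05. Percentiles rank −log10 p. Peaks per library were compared by an exact two-sided permutation test. Motifs were exact matches within 100 bp of the strongest summit. The genes and lists were chosen with earlier results of these data known. Beside 16 genes described whatever their values, the text names those with regions past the threshold, up to 10 restricted regions per genotype with the highest percentiles, those lacking a promoter peak in a library, and up to 10 per direction with promoter percentiles that do not overlap. Wnt9a and Wnt11, the Wnt5b promoter region, the 2 weakest K20R-restricted regions, the lowest and highest promoters and the other regions at Fzd7, Fzd10 and Axin2 were named after their values were seen. Alternatives covered the peak threshold, list length, TSS choice, distance, overlap, normalisation, measure, a replicate block and leaving out each library.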

Additional observations from a re-analysis of the deposited data

How the results depend on the processing

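The count of 46 genes whose promoter carried a peak in every library stayed within 1.5 times under every setting tried. With peaks of −log10 q of at least 5, 5 regions were K20R-restricted, 3 lower and 2 higher in K20R, where 548 of 29192 common regions of the genome were lower and 400 higher. With an equal number of peaks from every list 31 regions were WT-restricted, 16 were K20R-restricted and 2 were higher. Within 10 kb, 11 regions were WT-restricted, 5 K20R-restricted, 3 lower and 2 higher, as fewer regions were counted. Without regions that have missing peak numbers in the other genotype, 15 were WT-restricted and 6 K20R-restricted. Recovered summit pileups gave 28 lower and 10 higher regions (4128 and 3750 over the genome). The median log2 difference was then −0.0109, below the 0.032 over all common regions, whereas with folds it lay above. The cause was not tested. In the common regions above the median percentile 2 were lower and 1 higher (269 and 223 over the genome, fewer regions being tested). By the percentile within the whole list, 5 promoters were above. With distances measured to the summit, 42 genes had a promoter peak in every library. Of these 9 lay below and 9 above, where 23% and 23.8% of all ranked promoters did. The Fzd9 increase had an adjusted p of 0.109 by limma with median centring. No called region changed sign where it could be fitted, but of the 14 only 5 were left with −log10 q of at least 5, 11 with lists of equal length and 2 above the median percentile, and Fzd7 was in none of these 3 fits.

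Leaving out 1 library at a time gave 49 to 68 WT-restricted and 15 to 28 K20R-restricted regions, 7 to 10 lower and 1 to 3 higher regions (1 without K20R replicate 1 and 2 without K20R replicate 2), and a median of −0.00501 to 0.0881. Promoters below numbered 16 to 22 and above 10 to 17, where fewer libraries make separation likelier (35.1% to 37.9% of all promoters). Fewer libraries also make a region count as restricted more easily. The restricted share over all regions was not worked out with a library left out. The difference in peaks ran from −56 to −36. With no library left out, it was −43 for peaks of −log10 q of at least 5 (exact permutation p = 0.667). It was −15 with an equal number of peaks from every list. Over the genome higher regions numbered 472 without K20R replicate 2 and 629 without K20R replicate 1.

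Labels do not say that replicate numbers pair the libraries, and deviations of same-numbered libraries correlated at 0.21 over common regions, with only 2 pairs. With the replicate number as a block, 10 regions were lower and 3 higher, the median was 0.0464, and the Fzd9 increase had a limma adjusted p of 0.0682.

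With 2 libraries per genotype and no reads, neither depth nor weak differences can be judged, and absence from a list does not show closed chromatin.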
